A study of Mus musculus with 6 samples.

Results

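The subject is the 5p arms of the mouse miR-290 to miR-295 cluster, read in embryonic stem cells and in the embryoid bodies made from them. Members were the array entries mmu-miR-290-5p, mmu-miR-291a-5p, mmu-miR-291b-5p, mmu-miR-292-5p, mmu-miR-293-5p, mmu-miR-294-5p and mmu-miR-295-5p, chosen by name and not by signal, and written below without the species prefix. These are 7 of the 1247 mouse miRNA entries. All 7, and all 7 matching 3p entries, were flagged as detected on each of the 6 arrays, so a filter on dim entries left none out.

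The study compared 3 groups of 2 single-colour Agilent arrays each, and its title places it in work on myogenic differentiation. The group labelled mESC holds undifferentiated stem cells of a C57 line kept for 16 h under normoxia, with leukaemia inhibitory factor and on mouse embryonic fibroblasts whose division had been stopped with mitomycin C. Both other groups are embryoid bodies (EBs), cell aggregates that were formed in hanging drops with neither that factor nor feeder cells, and were kept for 16 h under normoxia or under hypoxia. Feeders were thus part of the mESC culture only, so cells and medium both differ between mESCs and EBs. Whether the arrays of a group came from separate cultures is not stated in the labels. Spread between arrays, on which the p-values rest, may thus be technical, and precision is limited by their number. The file names put all arrays on 1 slide, mESCs in one row and EBs in another, and so the row of the slide cannot be told apart from the cell state.

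The miR-290 to miR-295 hairpins are known to be made from one primary transcript that is most active in pluripotent mouse cells and in the early embryo. Each hairpin is cut into a duplex of a 5p and a 3p strand, of which one is usually kept in an Argonaute protein and the other is mostly lost. In this cluster the 3p strands of most hairpins carry the AAGUGC seed known to speed the stem cell cycle, and the 5p strands carry seeds of another kind.

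Seeds (bases 2 to 8, in capitals) are shown first because they sort the 5p arms into families and set them apart from the 3p arms. Sequences are those of RefSeq for GRCm38.p6, where the array entries miR-290 and miR-292 match the names miR-290a and miR-292a.
miR-290-5p: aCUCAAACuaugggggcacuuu
miR-292-5p: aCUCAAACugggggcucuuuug
miR-293-5p: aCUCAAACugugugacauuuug
miR-291a-5p: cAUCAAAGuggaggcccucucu
miR-291b-5p: gAUCAAAGuggaggcccucucc
miR-294-5p: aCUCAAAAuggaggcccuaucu
miR-295-5p: aCUCAAAUguggggcacacuuc

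The seed CUCAAAC was shared by 3 members (miR-290-5p, miR-292-5p and miR-293-5p), and AUCAAAG by 2 (miR-291a-5p and miR-291b-5p), while miR-294-5p and miR-295-5p had a seed that no other member has. UCAAA stood at bases 3 to 7 of 7 of 7 members. Among all 1679 mouse mature miRNA names in the RefSeq table, 8 (0.476%) had these letters there. The remaining name was miR-292b-5p, whose hairpin lies on the opposite strand of the same locus, and which is not among the array entries analysed here. The match of miR-291a-5p to miR-291b-5p was 20 of 22 bases, to miR-294-5p 18 of 22, and to miR-290-5p 12 of 22.

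For the 3p strands, the seed AAGUGCU was found in miR-291a-3p, miR-294-3p and miR-295-3p, AAGUGCC in miR-290-3p and AAGUGCA in miR-291b-3p. The seed of miR-293-3p was GUGCCGC, which holds the letters GUGC at another place in the strand. The mature sequence of miR-292-3p is named only. A pair of hairpins shows where the arms lie, with both mature arms in capitals and the 5p arm first. These were the hairpins in which the 5p entry read brighter than the 3p entry on each array.
miR-290 hairpin: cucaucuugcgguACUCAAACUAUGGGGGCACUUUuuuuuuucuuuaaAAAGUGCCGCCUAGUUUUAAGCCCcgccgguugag
miR-291b hairpin: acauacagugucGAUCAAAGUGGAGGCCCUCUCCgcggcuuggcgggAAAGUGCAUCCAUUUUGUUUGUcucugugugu

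The 7 hairpins lie within 2216 bases on the plus strand of chromosome 7 (GRCm38.p6, chr7:3218626-3220841). RefSeq places 1 protein-coding gene over this stretch, Nlrp12, and the long non-coding RNA D7Ertd143e over most of it. The table used gives gene spans without exons, so exonic and intronic positions are not given here. The miR-290 hairpin is at chr7:3218626-3218708 and the miR-295 hairpin, the last of the row, at chr7:3220773-3220841.

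The scanner called 408 to 495 of the 1247 entries detected per array, and signals of the arrays of a group correlated at r = 0.997 to 0.998 across miRNAs. Each array was scaled to its 75th percentile, taken over 391 miRNAs that every array detected, because the arrays differed in brightness, with percentiles from 137 units on an mESC array to 237 on a normoxic EB array. Signals below are in these scaled units. Any miRNA detected on both arrays of 1 group or more was tested with limma (484 in all), and adjusted p-values are over all of them with a threshold of 0.05. For 2 arrays against 2, the smallest p of a two-sided exact permutation test is 0.333, so none was run for single members. The labelled cell state was checked with miRNAs typical of pluripotent cells. Of the 6 listed, miR-294-3p and miR-295-3p belong to the cluster itself and were left out of the sum. The other 4 (miR-302a-3p, miR-302b-3p, miR-302d-3p and miR-367-3p) were detected on all arrays and summed to 5377 and 5156 (mESCs), 1714 and 1542 (normoxic EBs) and 1249 and 1240 (hypoxic EBs). Unscaled, these sums were 3915 and 3835, then 2023 and 1940, then 1451 and 1149, also highest in mESCs. This order did not hold for the full list. With miR-294-3p and miR-295-3p put back, the unscaled sums were 16119.7 and 15646.9, then 20247.5 and 19265.1, then 15471.9 and 12227.4, highest in normoxic EBs. These cluster arms made up 75.5 to 90.6% of the scaled sum of all 6. Of 10 miRNAs typical of fibroblasts, 4 were detected on all arrays and 3, among them miR-143-3p, on none. Their summed scaled signal was 549 and 519 (mESCs), 373 and 339 (normoxic EBs) and 290.9 and 274 (hypoxic EBs), most of it from miR-21a-5p. This order depended on the scaling too, because the unscaled sums were highest in normoxic EBs, which had no feeders. Some of the list went against the scaled order: miR-125b-5p read 26.3 and 24.5, then 75.1 and 64.7, then 55.6 and 57.6 in the same order of groups. miR-199a-3p was detected on the 4 EB arrays only, and miR-145a-5p and miR-214-3p on 1 hypoxic EB array each. The part of feeder cells in the results was not tested. In bulk RNA, fewer cells of a type and less RNA per cell cannot be told apart.

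Among the carriers of the CUCAAAC seed, the signal of miR-290-5p was 696 and 704 (mESCs), 619 and 602 (normoxic EBs) and 617 and 676 (hypoxic EBs). The mESC arrays were the highest, and both EB groups overlapped. For miR-292-5p the signals were 148 and 147 (mESCs), 129 and 124 (normoxic EBs) and 123 and 132 (hypoxic EBs). Again both mESC arrays lay above all EB arrays, and the EB groups overlapped. miR-293-5p read 29.3 and 30.9 (mESCs), 33.2 and 34.7 (normoxic EBs) and 24.7 and 22.6 (hypoxic EBs). The order of miR-293-5p was its own: normoxic EBs highest, mESCs between and hypoxic EBs lowest, with no overlap of any pair of groups.

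Among the carriers of AUCAAAG, miR-291a-5p read 128 and 132 (mESCs), 88.4 and 86.3 (normoxic EBs) and 91.3 and 96.6 (hypoxic EBs). Its mESC arrays stood clear of the EB arrays, and the hypoxic EB arrays lay slightly above the normoxic ones without overlap. miR-291b-5p was dim and was read with the largest scanner error of the members (9.5 to 17.7% of the signal, against 5.6 to 9.3% for the others). It read 12.0 and 11.3 (mESCs), 5.75 and 8.77 (normoxic EBs) and 13.0 and 16.5 (hypoxic EBs). Here normoxic EBs were lowest and hypoxic EBs highest, and the arrays of both EB groups spread more widely, for their signal, than those of any other member.

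With a seed of its own, miR-294-5p read 102 and 105 (mESCs), 77.1 and 73.8 (normoxic EBs) and 75.2 and 79.2 (hypoxic EBs). Its pattern was that of miR-291a-5p, high in mESCs and lower in both kinds of EB. For miR-295-5p the signals were 84.4 and 89.0 (mESCs), 86.6 and 86.1 (normoxic EBs) and 74.8 and 77.2 (hypoxic EBs). This member was level between mESCs and normoxic EBs, which overlapped, and lowest in hypoxic EBs.

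**Figure D1:**
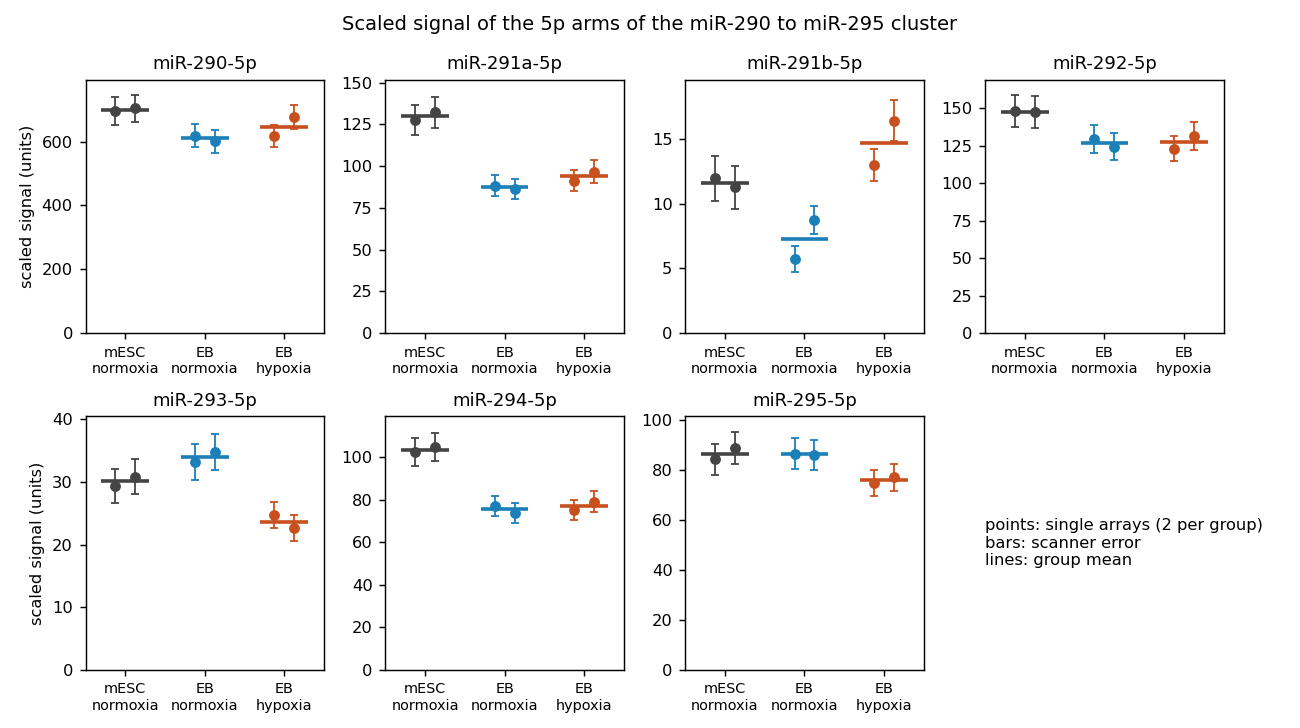
Scaled signal (units, axes from 0, each panel with its own scale) of the 7 members in mESCs, normoxic EBs and hypoxic EBs. Points are single arrays, bars the scanner's error and lines the mean of 2 arrays; miR-291a-5p and miR-294-5p stand high in mESCs, miR-293-5p is highest in normoxic EBs and miR-291b-5p in hypoxic EBs, which does not hold without scaling for miR-291a-5p and miR-294-5p, nor with cyclic loess for miR-291b-5p.

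The first comparison asked how the members differed between normoxic EBs and mESCs. Lower in EBs were 3 of 7 members and higher 0, while 25.2% of the 484 tested miRNAs were lower and 26% higher. miR-291a-5p fell 1.49-fold (95% interval 1.35 to 1.64, adjusted p = 0.002), miR-294-5p 1.37-fold (1.25 to 1.52, adjusted p = 0.00367) and miR-292-5p 1.16-fold (1.05 to 1.29, adjusted p = 0.031), and all 3 directions turned without scaling, where 4 members were higher and 0 lower. The call for miR-292-5p was lost with hur control features, quantile normalization and cyclic loess as the scaling, without a filter, with the array number as a block (adjusted p = 0.0529), and on leaving out any 1 of the mESC or normoxic EB arrays (adjusted p = 0.0513 to 0.14). Of the calls over all miRNAs 50.8% were higher, but 96.7% without scaling, 64.8% with hur control features and 62.5% with scaling to the median.

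The other 4 members did not pass. The log2 change was -0.20 for miR-290-5p (adjusted p = 0.0539), -0.71 for miR-291b-5p (0.066), 0.18 for miR-293-5p (0.0904) and -0.00 for miR-295-5p (interval -0.14 to 0.13). The value of the dim miR-291b-5p ran from -1.02 to -0.41 with 1 array left out and was -0.02 with a floor 4 times as high. It passed as lower with quantile normalization (adjusted p = 0.022), with cyclic loess (0.0186), among miRNAs detected on all arrays (0.0123) and without the second normoxic EB array (0.0347). miR-290-5p passed as lower with scaling to the percentile of all miRNAs (0.0168), with cyclic loess (0.039), with a trend in the fit (0.0386) and without either hypoxic EB array (0.0182), and miR-293-5p passed as higher without scaling (0.00707). The 5p arms had a median log2 change of -0.22 against 0.05 over all tested miRNAs. Their 3p partners had a median of -0.21, with 1 of 7 lower (miR-290-3p, at -0.52), and 5 of 7 higher without scaling. Without scaling the median of all miRNAs was 0.74 and that of the 5p arms 0.51. The difference between both medians was -0.26 and is barely touched by 1 factor per array. It was -0.14 with quantile normalization and -0.21 with cyclic loess.

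The second comparison, of hypoxic with normoxic EBs, gave 1 member higher and 2 lower, against 32.9% of all tested miRNAs higher and 25.2% lower. With hur control features as the scaling it was 5 higher and 0 lower, and without scaling 0 higher and 1 lower. miR-293-5p fell 1.44-fold (1.27 to 1.63, adjusted p = 0.00872) and miR-295-5p 1.14-fold (1.04 to 1.25, adjusted p = 0.0353), and miR-291b-5p rose 2.06-fold (1.32 to 3.21, adjusted p = 0.0234). Only the fall of miR-295-5p changed direction under another scaling, with hur control features (log2 0.05). The miR-293-5p call was lost under that scaling (adjusted p = 0.0923) and without a filter (0.0768). The rise of miR-291b-5p depended on the floor: with a floor 4 times as high it was 0.33 on the log2 scale (adjusted p = 0.127). Its call was also lost without scaling (0.0588) and without a filter (0.179). It was 1.21 and 0.87 on the log2 scale without the first and the second hypoxic EB array, and 0.74 without the first normoxic EB array, with adjusted p from 0.0625 to 0.121. Leaving out the second normoxic EB array gave 1.35 and kept the call. The call was also lost without either mESC array (adjusted p = 0.0541), although these arrays add only to the estimate of the spread, and the miR-295-5p call was lost on leaving out any 1 of the 6 arrays (0.0596 to 0.0881), without scaling (0.0639), with the authors' normalized ratio (0.0659), with a lower floor (0.0529), without a filter (0.111) and among miRNAs detected on all arrays (0.0536). Over all miRNAs 56.6% of the calls were higher, against 93.9% with hur control features, 17.3% without scaling, 46% with quantile normalization and 45.9% with cyclic loess.

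The remaining members did not pass. The log2 change was 0.08 for miR-290-5p (interval -0.08 to 0.25), 0.10 for miR-291a-5p (-0.04 to 0.25), 0.00 for miR-292-5p (-0.14 to 0.15) and 0.03 for miR-294-5p (-0.11 to 0.17). With hur control features all 4 passed as higher, at 0.32 (adjusted p = 0.00395), 0.34 (0.00558), 0.24 (0.0135) and 0.27 (0.0144) in the same order. The median over the 7 members was 0.03, beside 0.10 over all tested miRNAs. In the same comparison 5 of 7 of the 3p arms were lower, with a median of -0.26, which became -0.03 with 0 of 7 lower under hur control features. Without a filter 0 of 7 were called too, at an unchanged median, and with a higher or a lower floor 3. With 1 array left out the median was -0.33 to -0.18, but most of these fits called fewer of the 3p arms lower.

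The third comparison, of hypoxic EBs with mESCs, shares its arrays with both others and is given for its own values. It had 5 of 7 members lower and 0 higher, against 33.7% of all tested miRNAs lower and 41.3% higher. The falls were 1.38-fold for miR-291a-5p (adjusted p = 0.00199), 1.34-fold for miR-294-5p (0.0026), 1.27-fold for miR-293-5p (0.00955), 1.16-fold for miR-292-5p (0.0219) and 1.14-fold for miR-295-5p (0.0243), and all 5 turned without scaling. Members called were 2 higher and 0 lower without scaling or with the authors' normalized ratio, and 1 higher (miR-290-5p, 0.22, adjusted p = 0.00944) and 0 lower with hur control features. Without a filter the calls for miR-292-5p, miR-293-5p and miR-295-5p were lost (0.0635 to 0.0764), scaling to the median lost those for miR-293-5p and miR-295-5p (0.0563 and 0.0978), and cyclic loess that for miR-295-5p (0.061). On leaving out the first or second mESC array the call for miR-292-5p was lost (0.0964 and 0.088), as was that for miR-295-5p (0.0539 and 0.122). The miR-293-5p call was lost without the second mESC array (0.0548) and that of miR-295-5p also without the first hypoxic EB array (0.0592). Calls over all miRNAs were higher in 55.1%, in 93% without scaling and in 80.7% with hur control features. The log2 change was -0.12 for miR-290-5p (adjusted p = 0.152) and 0.33 for miR-291b-5p (0.259). The first passed as lower with the all-miRNA percentile (0.0112), with cyclic loess (0.0396) and without the second hypoxic EB array (0.0255), the second as higher without scaling (0.0343). The median of the members was -0.21 and that of all tested miRNAs 0.11. All 7 of the 3p arms were lower, with a median of -0.47. Without scaling the median was 0.03 with 0 of 7 lower, and with hur control features it was -0.13 with 1 of 7 lower. The call for miR-291b-3p (adjusted p = 0.049) rests on hypoxic EB signals set to the floor.

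**Figure D2:**
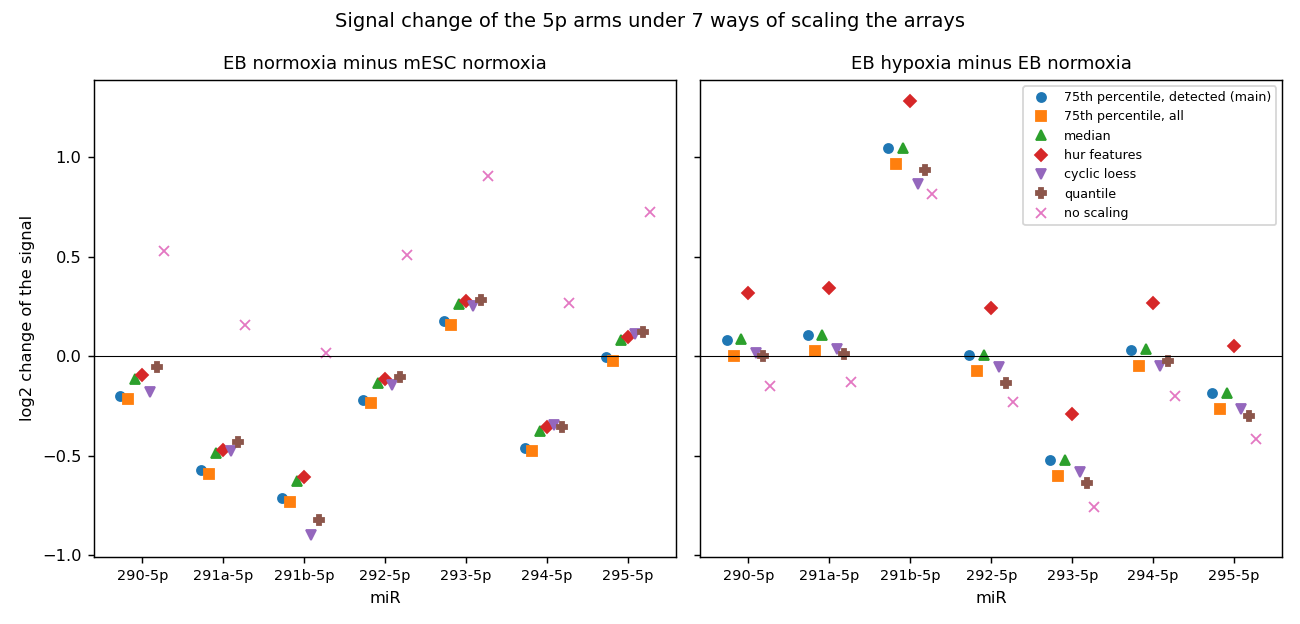
log2 change of the signal of each member between normoxic EBs and mESCs (left) and between hypoxic and normoxic EBs (right) under 7 ways of scaling the arrays. Without scaling (crosses) the 7 members lie above 0 on the left; miR-293-5p lies below 0 and miR-291b-5p above 0 in all settings on the right.

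A ratio of both arms of a hairpin on one array is untouched by a scaling that uses 1 factor per array. Its level depends on how well each of the probes binds, so it is not a measure of which strand is more abundant, and only its change between groups was tested. Both arms were detected on all 6 arrays for 55 of the 422 hairpins with both arms on the array, and these 55, with the 7 of the cluster among them, were fitted with limma. Adjusted p-values of ratios are over the 55 hairpins.

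For 5 of the hairpins the 5p signal was 0.769 to 3.35% of the 3p signal. The ratio of 5p to 3p was above 1 for miR-290 and miR-291b only.

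The hairpin of miR-290 had a 5p over 3p ratio of 5.22 and 5.61 (mESCs), 6.48 and 7.10 (normoxic EBs) and 8.43 and 8.28 (hypoxic EBs). It went up from group to group with no overlap. For miR-292 the 5p signal was 2.75 and 2.79% of the 3p signal (mESCs), 2.66 and 2.79% (normoxic EBs) and 3.20 and 3.35% (hypoxic EBs). Only the hypoxic arrays stood apart. For miR-293 it was 0.769 and 0.863% (mESCs), 0.986 and 1.15% (normoxic EBs) and 0.920 and 0.856% (hypoxic EBs), highest in normoxic EBs.

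For miR-291a the 5p signal was 2.11 and 2.24% of the 3p signal (mESCs), 1.50 and 1.60% (normoxic EBs) and 2.08 and 2.12% (hypoxic EBs). The normoxic EB arrays lay well below the others, which overlapped. The ratio for miR-291b was 3.13 and 1.72 (mESCs), 1.83 and 3.46 (normoxic EBs) and 6.40 and 7.35 (hypoxic EBs), where it was highest. Its 3p arm was the dimmest of all 14 entries, with a scanner error of 20.7 to 31.0% of the signal. The miR-291b ratio is thus the least precise of the 7.

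The miR-294 hairpin had a 5p signal of 1.25 and 1.35% of its 3p signal (mESCs), 1.07 and 1.15% (normoxic EBs) and 1.29 and 1.40% (hypoxic EBs). As for miR-291a, the normoxic EBs were lowest. For miR-295 it was 0.983 and 1.10% (mESCs), 1.06 and 1.17% (normoxic EBs) and 1.20 and 1.23% (hypoxic EBs), which lay above all other arrays by a small margin.

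**Figure D3:**
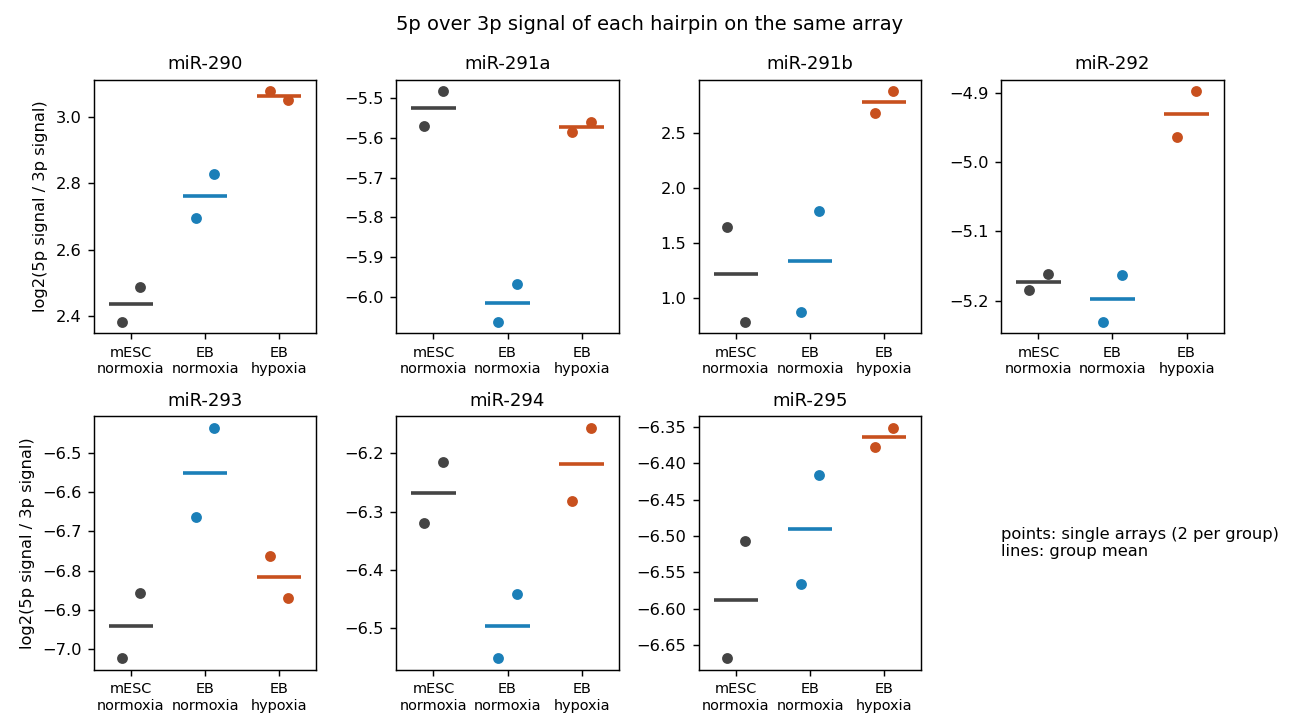
log2 of the 5p signal over the 3p signal of each hairpin on the same array, in mESCs, normoxic EBs and hypoxic EBs. Points are single arrays and lines the mean of 2; each panel has its own axis that does not start at 0. Hypoxic EB arrays lie above normoxic EB arrays in 6 panels and below them for miR-293.

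Between mESCs and normoxic EBs the arms of 3 hairpins changed unequally. The miR-291a ratio fell 1.40-fold (1.24 to 1.59, adjusted p = 0.00397), with miR-291a-5p lower and miR-291a-3p at a log2 change of -0.08 (adjusted p = 0.322). This fall passed in all 19 alternatives. Those that scale by 1 factor per array leave a ratio as it is, so they could not have lost the call. The miR-290 ratio rose 1.25-fold (1.09 to 1.44, adjusted p = 0.0163) and the miR-293 ratio 1.31-fold (1.08 to 1.59, adjusted p = 0.0268). Without the first mESC array or the second normoxic EB array both of these calls were lost (adjusted p = 0.0683 to 0.122), and that of miR-293 also without either hypoxic EB array (0.0617). Without a filter, which takes in 422 hairpins and floors their signals, neither passed (0.0616 and 0.136). Of all 55 hairpins 41.8% rose and 20% fell, so that 2 rises and 1 fall among 7 stand beside a background in which most ratios changed. The median of the cluster was 0.10, as was that of all hairpins.

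The remaining ratios did not pass in this comparison. The change was -0.23 for miR-294 (adjusted p = 0.0627, interval -0.44 to -0.02), -0.02 for miR-292 (-0.19 to 0.14), 0.10 for miR-295 (-0.13 to 0.32) and 0.12 for miR-291b (-0.89 to 1.13). Outside the cluster, the largest rises were those of miR-1943 (1.79) and miR-677 (1.48), and the largest falls those of miR-15b (-0.93) and miR-99b (-0.73).

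Between normoxic and hypoxic EBs 1 ratio of the cluster passed, against 1.82% of all hairpins higher and 12.7% lower. It was that of miR-291a, which rose 1.36-fold (1.20 to 1.54, adjusted p = 0.0142). Its difference between hypoxic EBs and mESCs was -0.05 on the log2 scale (interval -0.23 to 0.13). The call was lost without the first normoxic EB array (adjusted p = 0.0566) and without the first or second hypoxic EB array (0.0729 and 0.0743). miR-291a was also the 1 hairpin of all 55 that passed with a rise.

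Most of the other ratios of the cluster lay on the same side. The log2 change was 0.30 for miR-290 (adjusted p = 0.0553), 0.27 for miR-292 (0.0541), 0.28 for miR-294 (0.0743), 1.45 for miR-291b (0.0635) and 0.13 for miR-295 (0.318), and -0.27 for miR-293 (0.151). Quantile normalization turned miR-295 to -0.24. Arrays of both groups did not overlap, with hypoxic EBs higher, for 6 of the 7 hairpins, beside 20% of all 55. The 95% interval lay above 0 for 5 of the 7 (unadjusted) and for 6 of 55, or 10.9%. Ranked from the highest change, the hairpins stood at places 1 (miR-291b), 3 (miR-291a), 5 (miR-290), 6 (miR-294), 7 (miR-292), 11 (miR-295) and 41 (miR-293) of 55. The median was 0.28 in the cluster and -0.13 over the 48 hairpins outside it. These ratios come from the same 4 arrays, so a departure of 1 array would touch all of them, and whether the cluster differs from other hairpins was not tested.

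Most 5p arms of the cluster read far below their 3p arms, so the hairpins outside it are also described by which arm was dimmer. Outside the cluster, hairpins with a dimmer 5p than 3p entry numbered 20, with a median change of -0.24 (5 up, 15 down). The 5 of these whose 5p entry was at least 16-fold dimmer had a median of -0.20, with 1 up and 4 down. Hairpins with a brighter 5p entry (28) had a median of -0.10. These hairpins were not matched to the cluster by signal, and whether a dim 5p entry bears on the change of a ratio was not tested.

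**Figure D4:**
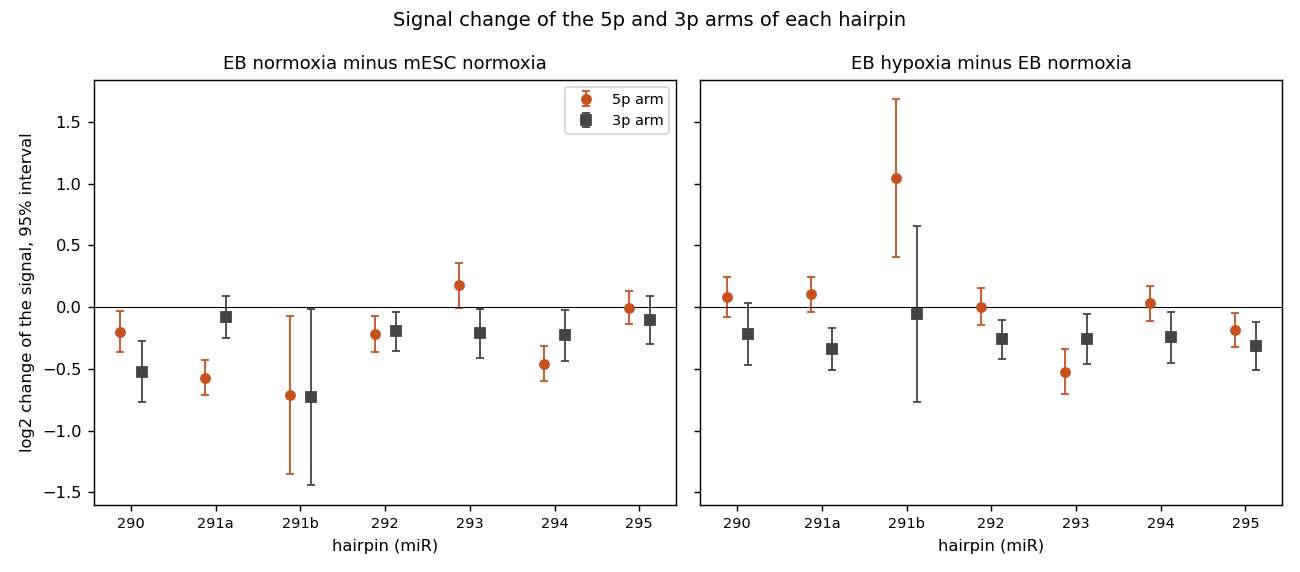
log2 change of the scaled signal of the 5p arm (circles) and the 3p arm (squares) of each hairpin, with 95% intervals, between normoxic EBs and mESCs (left) and between hypoxic and normoxic EBs (right). On the right the 3p arms lie below 0 and 5 of the 5p arms above it, which becomes 6 of the 5p arms with hur control features (where miR-290-3p also turns), 1 without scaling and 2 or 3 with quantile, cyclic loess or all-miRNA percentile scaling; miR-291b-3p was at the floor of 2.91 on 3 EB arrays.

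Set against mESCs, hypoxic EBs had 3 ratios of the cluster higher and 0 lower, where 32.7% of all hairpins were higher and 23.6% lower. They were those of miR-290 (1.54-fold, 1.34 to 1.77, adjusted p = 0.00248), miR-291b (2.96-fold, 1.47 to 5.96, adjusted p = 0.0201) and miR-292 (1.18-fold, 1.05 to 1.33, adjusted p = 0.0246). The miR-290 rise passed in all 19 alternatives, of which those with 1 factor per array could not have changed it. The miR-291b fold is not exact, because its 3p arm read 2.53, 2.03 and 2.24 on 3 EB arrays, under the floor of 2.91 used for levels and not for these ratios. With that floor, among 69 hairpins whose arms were both tested for level, the change was 1.12 on the log2 scale (adjusted p = 0.0561), without a filter it was the same (0.184), and with a floor 4 times as high it was 0.31 (0.0129). For miR-291b the call was also lost with the array number as a block (0.0696), without the second mESC array (1.13 on the log2 scale, adjusted p = 0.0568) and without the first or second hypoxic EB array (0.104 and 0.148). The miR-292 call was lost with quantile normalization (0.131), without the first or second mESC array (0.147 and 0.112) and without the second hypoxic EB array (0.0769). The changes of miR-293 (0.12), miR-294 (0.05) and miR-295 (0.22, adjusted p = 0.0853) did not pass. Outside the cluster, the largest changes in this comparison were 1.45 for miR-677, 1.22 for miR-1943, -1.29 for miR-99b and -1.27 for miR-125a.

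**Figure D5:**
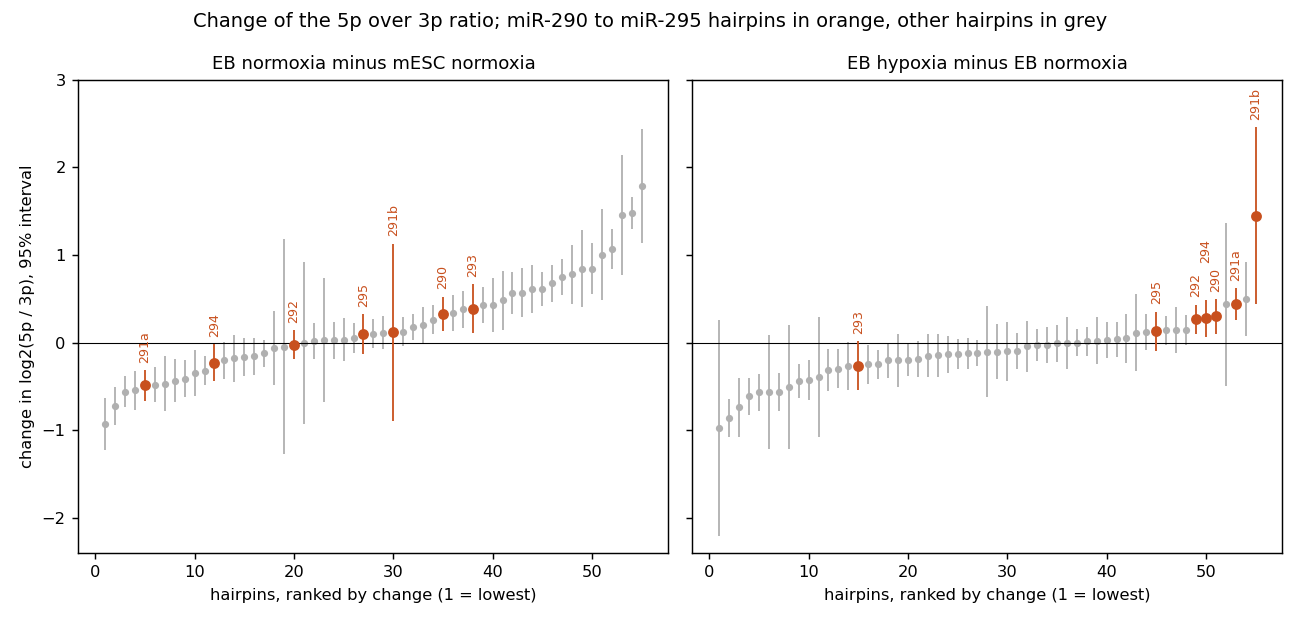
Change of the log2 ratio of 5p to 3p signal for 55 hairpins, ranked from the lowest, between normoxic EBs and mESCs (left) and between hypoxic and normoxic EBs (right). Points are estimates and bars their 95% intervals; the 7 hairpins of the cluster (orange) are spread over the ranks on the left and 6 of them lie among the 11 highest on the right.

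The miR-302/miR-367 cluster is also active in pluripotent cells, the main strands of its miR-302 hairpins carry the AAGUGC seed and that of miR-367 does not, and its 5p arms were read for comparison. Detection was limited to miR-302a-5p and miR-302d-5p, while miR-302b-5p, miR-302c-5p and miR-367-5p were undetected on all 6 arrays. miR-302a-5p read 47.6 and 48.3 (mESCs), 23.8 and 22.3 (normoxic EBs) and 16.6 and 13.7 (hypoxic EBs). It fell 2.08-fold in normoxic EBs (1.71 to 2.53, adjusted p = 0.00241), and its log2 change without scaling was -0.33. The 5p over 3p ratio rose in normoxic EBs for miR-302a (0.61 on the log2 scale, adjusted p = 0.00741) and miR-302d (1.00, adjusted p = 0.00979). Between hypoxic and normoxic EBs it was -0.27 for miR-302a (0.151) and -0.10 for miR-302d (0.793), on the other side of 0 from 6 of the 7 miR-290 to miR-295 hairpins. No test was made of the difference between the clusters.

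Members that are close in sequence did not all have close patterns. The likeness of profiles was measured as the root mean square difference of log2 signals over the 6 arrays, after centring each miRNA on its own mean. It was 0.0447 between miR-290-5p and miR-292-5p, which share a seed, and 0.0481 between miR-291a-5p and miR-294-5p, which share 18 of 22 bases and not the seed. The nearest pair by sequence, miR-291a-5p and miR-291b-5p, differed by 0.461. miR-291b-5p was the least like the mean profile of the 7 (0.431) and miR-293-5p the next (0.265). The intervals that the deposited series table gives for the 7 members lie inside the mature sequences and reach their 3′ ends. At these ends miR-291a-5p, miR-291b-5p and miR-294-5p are nearly the same. Over all entries with a RefSeq name, 591 of 1017 (58.1%) have an interval inside their GRCm38 mature sequence, and no source used here states that the intervals are the probed stretches. They are shown in capitals to let the stretches be compared.
miR-291a-5p: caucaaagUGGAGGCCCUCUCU
miR-291b-5p: gaucaaagugGAGGCCCUCUCC
miR-294-5p: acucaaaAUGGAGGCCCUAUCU
Over the last 12 bases, 11 are identical between miR-291a-5p and miR-291b-5p, 11 between miR-291a-5p and miR-294-5p, and 10 between miR-291b-5p and miR-294-5p. How far their probes tell these strands apart was not tested, so their signals are to be read as uncertain in that respect.

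Among 377 miRNAs outside the cluster that were detected on all arrays, those nearest to the mean profile of the 7 members were miR-423-3p (0.0642), miR-378d (0.0647), miR-6370 (0.0740), miR-344i (0.0761) and miR-423-5p (0.0808). All of these lay farther from the mean profile than miR-292-5p (0.0496) and miR-290-5p (0.0529), which are part of that mean. For every other member some of the 377 lay nearer to it. They numbered 12 for miR-294-5p, 28 for miR-295-5p, 29 for miR-291a-5p, 177 for miR-293-5p and 308 for miR-291b-5p. With 6 arrays in 3 groups, such a measure describes these arrays only.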

How the data were processed

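Total RNA was extracted with Trizol. Per the labels, Cy3-labelled cRNA was made with an amplification kit, which is unusual for miRNAs, so the labelling is uncertain. Each deposited scanner file lists, per the file headers, an intensity for every miRNA (its total signal), the error of it and a flag for detection, and undetected entries hold 0.1. Software, the rule of detection and the build of the table's locations were not given in the sources used here. The raw columns of the authors' series table equal these intensities for 1247 of 1247 miRNAs. Its normalized ratio, deposited by the authors, gave log2 changes equal to unscaled signals for the members and was used as an alternative, and 6 columns that match no listed sample were not used.

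Scaled intensities (75th percentile) were floored at 2.91 and put on the log2 scale. Group means of 6 arrays were fitted with limma 3.58.1 in R 4.3.3 (lmFit, eBayes, Benjamini-Hochberg adjustment). Ratios of arms were fitted unfloored. The fits were also run on data simulated from their own spread, with noise independent between arrays and no error of scaling. Such runs cannot show how the results depend on the scaling or on a single array. Sequences were read with pandas 2.3.3 in Python 3.11.15, and figures drawn with matplotlib 3.10.9. RefSeq held 13 of 14 mature arms and 6 of 7 hairpins. Named miRNAs were the members, their 3p arms, the miR-302/miR-367 5p arms, up to 2 hairpins per direction with the largest ratio changes, and the 5 most alike profiles. Members, lists and rules were chosen with earlier results of these data known.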

Additional observations from a re-analysis of the deposited data

How the results depend on the processing

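Levels depended on the scaling. Without scaling, and equally with the authors' normalized ratio, the log2 change from mESCs to normoxic EBs was 0.53 for miR-290-5p, 0.16 for miR-291a-5p, 0.016 for miR-291b-5p, 0.51 for miR-292-5p, 0.27 for miR-294-5p and 0.72 for miR-295-5p. From mESCs to hypoxic EBs it was 0.38, 0.029, 0.28, 0.15, 0.071 and 0.31 for miR-290-5p, miR-291a-5p, miR-292-5p, miR-293-5p, miR-294-5p and miR-295-5p, and between the EB groups -0.15, -0.13, -0.23 and -0.20 for miR-290-5p, miR-291a-5p, miR-292-5p and miR-294-5p. Values near 0 turned too. miR-295-5p in normoxic EBs against mESCs was 0.081 (median scaling), 0.10 (hur control features), 0.12 (quantile), 0.11 (cyclic loess) and -0.043 to 0.034 with 1 array left out. Between the EB groups miR-292-5p was -0.075 (all-miRNA percentile), -0.13 (quantile), -0.051 (loess) and -0.043 to 0.052 (1 array left out), miR-294-5p was -0.047, -0.025, -0.047 and -0.0044 to 0.070 in the same settings, and miR-295-5p 0.050 (hur). Hypoxic EBs against mESCs gave 0.22, 0.12 and 0.15 for miR-290-5p, miR-292-5p and miR-295-5p with hur control features, and -0.033 for miR-291b-5p with loess.

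A scaling by 1 factor per array cannot change a ratio, so few alternatives bear on ratios. From mESCs to normoxic EBs miR-292 was 0.026 (quantile), 0.067 (loess) and -0.057 to 0.0093 (1 array left out), and miR-291b was -0.023 (floored at 4 times the height used for levels) and -0.34 to 0.58 (1 array left out), below 0 without the second mESC or normoxic array. Quantile normalization gave -0.24 for miR-295 between the EB groups, and -0.17 and -0.12 for miR-294 and miR-295 in hypoxic EBs against mESCs, where miR-294 was -0.014 to 0.11 with 1 array left out.

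Counts moved as follows. Of all miRNAs, 248 were called between mESCs and normoxic EBs, but 154 with a floor 4 times as high, 94 without a filter and 142 to 258 with 1 array left out. Between the EB groups 281 became 139 without scaling, 146 with the authors' normalized ratio, 20 without a filter (when all 1247 were tested) and 160 to 264 with 1 array left out, and for hypoxic EBs against mESCs 363 became 231 without a filter. Members called between the EB groups numbered 3 (1 higher), but 1 without scaling (lower), 5 with hur control features (all higher), 1 to 2 with 1 array left out, and 0 in limma without a filter (3 at an unadjusted p under 0.05). For hypoxic EBs against mESCs, 5 lower became 3 lower with the median, 2 lower without a filter, 2 higher and 0 lower without scaling or with the authors' ratio, 1 higher (miR-290-5p) and 0 lower with hur control features, and 2 to 6 with 1 array left out.

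Ratios were fitted without a floor, so the higher floor and the absence of a filter each also brought a floor in. Of the cluster's ratios, 3 called from mESCs to normoxic EBs became 1 without a filter and 1 to 3 with 1 array left out, and over all hairpins 34 became 74 and 21 to 32. Between the EB groups 1 became 3 (quantile), 6 (higher floor), 2 (no filter) and 0 to 3 (1 array left out), and over all hairpins 8 became 27 (higher floor), 47 (no filter) and 0 to 14. Over all hairpins the 0 arose in limma without the first or second hypoxic array, when 18 and 14 of 55 had an unadjusted p under 0.05. For hypoxic EBs against mESCs 3 became 1 to 3 with 1 array left out, and over all hairpins 31 became 140 (no filter) and 20 to 33. The cause of these shifts was not tested. A group left with 1 array is assumed to vary like the others.

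Array numbers are shared between groups, but only as numbers. Deviations of same-numbered arrays correlated at -0.03 (normoxic EBs, mESCs), 0.11 (both EB groups) and 0.15 (hypoxic EBs, mESCs) over 391 miRNAs. With the number as a block, 2, 3 and 5 members and 4, 3 and 3 of the cluster's ratios were called in the 3 comparisons, and 242, 263 and 357 of all miRNAs.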
